A study of Homo sapiens with 18 samples.

Results

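The response described here is the one shared by the breast cancer lines MDA-MB-231 and MDA-MB-468 after treatment with an antisense oligonucleotide (ASO) to AL078604.2, a long non-coding RNA. It was taken from 12 of the 18 arrays of the series, namely the 6 arrays of cells given the anti-AL078604.2 ASO and the 6 arrays of the same lines given a control ASO, with 3 arrays per line and treatment. Both lines are established triple-negative breast cancer lines, meaning that they lack the hormone receptors and HER2 amplification that guide treatment of other breast tumours. The other 6 arrays were of SKBR3, which is known as a HER2-positive line, treated with a control ASO or with one to another long non-coding RNA, LINC01269. All ASOs were GapmeRs, used at 15 nM for 48 h with the transfection reagent TransIT-BrCa. RNA was read on Affymetrix Human Gene 2.0 ST arrays. The control group therefore carried an oligonucleotide and the transfection reagent too, and AL078604.2 was the only target studied in these lines, so an effect of losing AL078604.2 and an effect of that ASO's own sequence cannot be told apart. The labels number the arrays of a group 1 to 3 without saying that they came from separate cultures, so p-values measure the spread between these arrays, which may be technical.

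A GapmeR is a short DNA strand flanked by modified nucleotides. When it pairs with its target, RNase H cuts the RNA, and because RNase H is also found in the nucleus, such molecules are commonly used against nuclear long non-coding RNAs. Long non-coding RNAs can act on neighbouring genes, on chromatin at a distance or on proteins they bind. Oligonucleotides and their carriers are themselves known to touch innate immune sensors and stress signalling, and for this reason interferon-stimulated genes, immediate early genes and proteins of antisense activity were listed and described beside the other genes.

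AL078604.2 has no named feature on the array, so its own level was not analysed here. The marker genes sat only partly with the line labels. RB1, which is lost in MDA-MB-468, stood at the 24.9 percentile of all features on the control arrays labelled MDA-MB-468 and at 60.5 on those labelled MDA-MB-231. EPCAM, which is known as low in the mesenchymal-like MDA-MB-231, stood at 99.2 on the arrays labelled MDA-MB-231 and at 99.3 on those labelled MDA-MB-468. VIM, the mesenchymal filament gene, stood at 76.7 and 82.4 in the same order, and AXL at 83.2 and 60.3. ERBB2, which encodes HER2, has no named feature, and its co-amplified neighbour GRB7 stood at 79.2 on the SKBR3 control arrays, against 81.3 and 78.9 in the triple-negative lines. EGFR stood at 99.0 in SKBR3, against 98.2 and 98.7. Lines and treatments are therefore named below as the array labels give them. The expression values of replicate arrays correlated at 0.986 to 0.992 within a group, and at 0.974 to 0.984 between the lines. Array medians differed by line (5.41 to 5.43 and 5.21 to 5.24), so levels were compared only within a line.

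Of 28857 features tested, 387 (1.34%) passed limma's test of the mean of both within-line differences at an adjusted p under 0.05, and are said below to have been called. Of these, 168 (0.582%) were higher and 219 (0.759%) lower after the anti-AL078604.2 ASO. The rises had a median of 0.46 on the log2 scale (0.15 to 2.14) and the falls a median of -0.43 (-0.18 to -1.16). A change of at least 1.5-fold was seen for 45 of the higher and 52 of the lower features, and one of at least 2-fold for 7 and 10. All 387 differed in the same direction in both lines, which the test favours, since it counts a difference between the lines as spread. For 308 of them the 3 anti-AL078604.2 arrays lay beyond the 3 control arrays in both lines. Such a separation in both lines was found for 826 features in all (2.86%). The average difference was larger on the MDA-MB-231 side for 255 of the 387. At an unadjusted p under 0.05, 2390 features were higher and 2283 lower.

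GEO's platform annotation gave a gene symbol to 216 of the called features, which stand for 81 genes that were higher and 134 that were lower. The other 171 carry no symbol in that annotation, and 2 of them hold identical values. Over all tested features the differences of both lines, which come from separate arrays, correlated at 0.34 across features, and 59.3% had the same sign in both. The features share the arrays of a line, so this describes the arrays and gives no test.

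**Figure D1:**
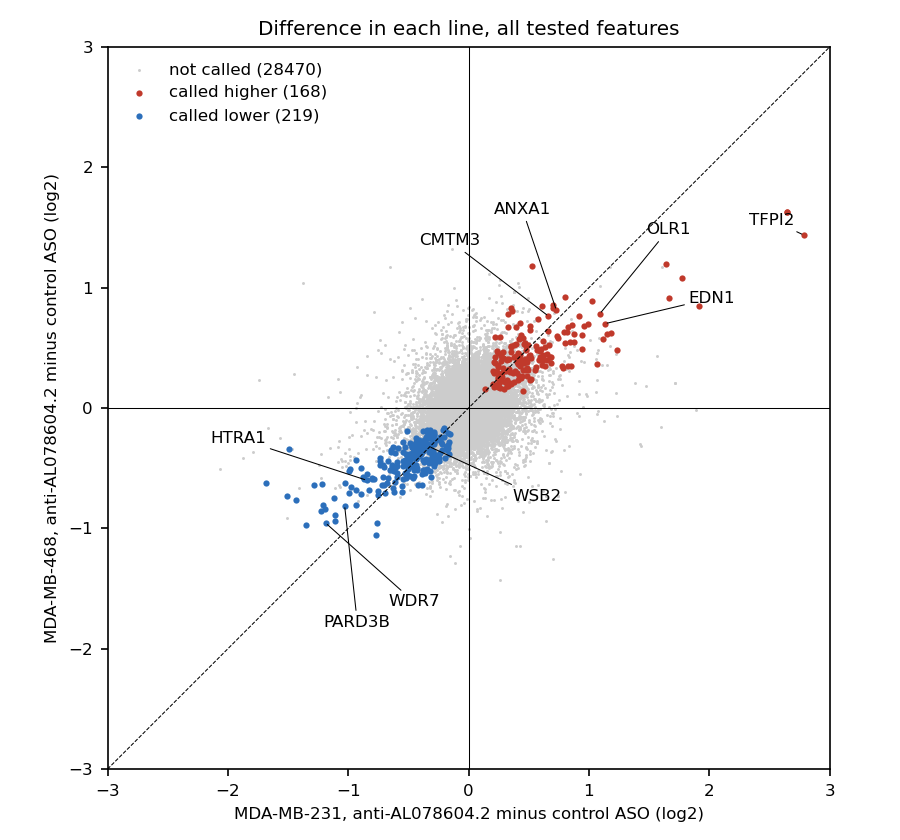
Each point is 1 tested feature, with its anti-AL078604.2 minus control ASO difference in MDA-MB-231 on the x axis and in MDA-MB-468 on the y axis (log2). The 168 called higher features lie in the upper right and the 219 called lower features in the lower left quadrant, and TFPI2 lies farthest out among the labelled genes. The dashed line marks equal differences.

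The arrays of the anti-AL078604.2 groups did not show the response to the same extent. Over the called features, the median rise and fall against the line's control mean were 0.30 and -0.22 on replicate 1 of MDA-MB-231, 0.48 and -0.51 on replicate 2, and 0.61 and -0.62 on replicate 3. In MDA-MB-468 they were 0.56 and -0.55 on replicate 1, 0.36 and -0.43 on replicate 2, and 0.34 and -0.23 on replicate 3. Replicate 1 of MDA-MB-231 had the smallest difference of its group for 350 of the 387 features (90.4%), and replicate 3 of MDA-MB-468 for 254 (65.6%). Without the former array 1488 features were called, and without the latter 1248, in both cases with all of the 387 among them. Without replicate 2 of the MDA-MB-231 anti-AL078604.2 arrays only CMTM3 was called, and without replicate 3 of the MDA-MB-231 control arrays 5 features were called. The other 8 omissions of 1 array left 47 to 81. The direction of each of the 387 stayed in all of these 12 fits, and what set the arrays apart was not tested.

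CMTM3 had the smallest adjusted p of all features. It encodes a membrane protein with a MARVEL domain, from the family of chemokine-like factors. On the MDA-MB-231 control arrays its log2 values were 6.03, 5.81 and 6.01, and on the anti-AL078604.2 arrays 6.64, 6.52 and 6.68. In MDA-MB-468 they were 5.25, 5.21 and 5.34 with the control ASO and 6.14, 6.02 and 5.93 with the anti-AL078604.2 ASO. The groups were well apart in both lines, and the spread within each group was small beside the gap. The mean difference was 0.71 ± 0.0685 log2 (SE, 3 arrays per line and treatment), or 1.64-fold, with adjusted p = 0.00224. It was the 1 gene of the 51 called genes followed that was called in each of the 12 fits that left out an array. Of the 8 tested members of the CMTM family, 1 was called higher and 0 lower, and their median difference was -0.11, against 0.01 over all 10948 named genes tested. Of all these named genes, 80 were called higher and 131 lower (1.93%), and the list counts below stand beside that share.

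TFPI2 showed the largest rise of any named gene. It encodes a Kunitz-type serine protease inhibitor that is secreted into the extracellular matrix. Its log2 values were 7.08, 7.11 and 6.77 on the MDA-MB-231 control arrays and 8.85, 10.04 and 10.42 on the anti-AL078604.2 arrays. For MDA-MB-468 they were 6.38, 6.36 and 6.69 and 8.80, 7.61 and 7.33. All 6 anti-AL078604.2 arrays were above their controls, but with a wide spread. The mean difference was 2.11 ± 0.319 log2 (SE), or 4.32-fold, with adjusted p = 0.0174. Of the other 11 tested members of the list of coagulation and serine protease genes, the secreted protease gene HTRA1 was called, and it fell.

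EDN1, which encodes the precursor of the vasoconstrictor peptide endothelin-1, read 9.96, 9.86 and 9.65 on the control arrays of MDA-MB-231 and 10.56, 11.01 and 11.30 on the anti-AL078604.2 arrays. In MDA-MB-468 it read 8.73, 8.79 and 8.74 and 9.84, 9.52 and 9.01. The control arrays of MDA-MB-468 lay within a narrow band, and the anti-AL078604.2 arrays lay above it by unequal amounts. The rise was 0.92 ± 0.146 log2 (SE; 1.89-fold, adjusted p = 0.0176). Of the 6 tested genes of the endothelin system 1 was called, and the converting enzyme gene ECE1 (-0.19, adjusted p = 0.394), the ligand gene EDN2 (-0.16, adjusted p = 0.514) and the peptidase gene MME (0.02, adjusted p = 0.861) did not pass.

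ANXA1 and SCEL are genes of differentiated and barrier epithelia. ANXA1 encodes a calcium-dependent phospholipid-binding protein, and SCEL encodes sciellin, a precursor of the cornified envelope. ANXA1 read 10.33, 10.62 and 10.45 on the MDA-MB-231 control arrays against 10.86, 11.24 and 11.49 on the anti-AL078604.2 arrays, and 9.06, 9.31 and 9.19 against 10.34, 10.02 and 9.65 in MDA-MB-468. Both of its gaps were of like size, with differences of 0.73 in MDA-MB-231 and 0.81 in MDA-MB-468 and a mean of 0.77 ± 0.117 log2 (SE; adjusted p = 0.0174). SCEL read 5.75, 6.13 and 5.50 against 6.40, 6.78 and 6.77 in MDA-MB-231, and 4.21, 4.45 and 4.37 against 5.14, 4.98 and 4.98 in MDA-MB-468. Its mean rise was 0.77 ± 0.112 log2 (SE, adjusted p = 0.0174), and no array of one treatment reached the range of the other. In MDA-MB-468 all values of SCEL lay below that line's array medians (5.21 to 5.24), so it entered the test through MDA-MB-231. Among the 10 tested annexin genes, ANXA8 fell (-0.39 ± 0.0804 log2, adjusted p = 0.0395). Its signal cannot be parted with certainty from that of the near-identical copy ANXA8L1, which was also called lower (-0.48).

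Further large rises with separate groups in both lines were those of OLR1 (0.94 ± 0.201 log2, SE; adjusted p = 0.043), the scavenger receptor for oxidised low-density lipoprotein, and CPA4 (0.84 ± 0.14; adjusted p = 0.0215), a secreted carboxypeptidase. TSPAN2 rose by 0.77 ± 0.171 (adjusted p = 0.0463). It encodes a tetraspanin, a class of membrane scaffold proteins. The matricellular glycoprotein gene THBS1 rose by 0.59 ± 0.133 (adjusted p = 0.0465), the guanine deaminase gene GDA by 0.55 ± 0.102 (adjusted p = 0.0273) and the long non-coding RNA gene FOXD2-AS1 by 0.55 ± 0.103 (adjusted p = 0.0276). DKK1, a secreted inhibitor of Wnt signalling, rose by 0.75 ± 0.165 (adjusted p = 0.045), and its lowest anti-AL078604.2 array in MDA-MB-468 overlapped the controls. It was the 1 gene called among 19 of the Wnt list, which had 8 members above 0.

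**Figure D2:**
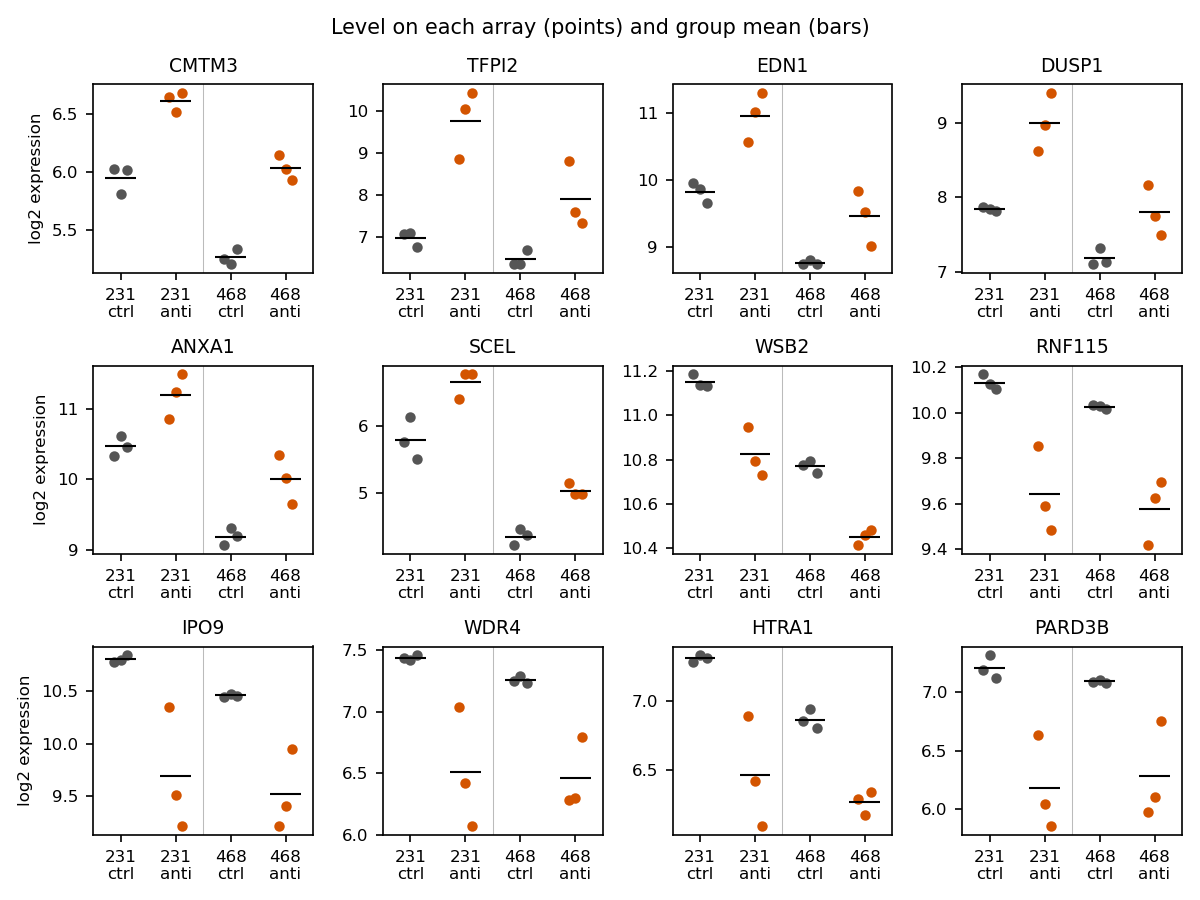
Each panel gives 1 gene's log2 expression on the 12 arrays, with grey points for control ASO, orange points for anti-AL078604.2 ASO and a black bar for each group's mean, MDA-MB-231 on the left and MDA-MB-468 on the right. The anti-AL078604.2 points of each gene lie beyond all control points of their line. For IPO9, WDR4 and PARD3B the controls are far tighter than the treated arrays, and for HTRA1 this holds in MDA-MB-231. The y axes differ between panels and do not start at 0.

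Immediate early genes, which mitogens and stress switch on without new protein synthesis, lay above 0 in 19 of 21 tested cases. Of these 21, 15 had an unadjusted p under 0.05, all of them higher, and 2 were called higher and 0 lower (9.52%), beside 80 higher and 131 lower of the 10948 named genes (1.93%). The median difference of the list was 0.24, against 0.01 over all named genes. Of all 10948 named genes 5862 lay above 0, and 6737 had the same sign in both lines, as did 17 of this list. At an unadjusted p under 0.05, 2390 of all 28857 features tested were higher and 2283 lower. These count every feature, while the list's 15 rest on each gene's feature of smallest p, so both are not on the same footing. The list's median was 0.34 in MDA-MB-231 and 0.12 in MDA-MB-468. In the fits that left out 1 array, the list's median ran from 0.19 to 0.29. In SKBR3, with the anti-LINC01269 ASO, the list's median was 0.15. EGR1, a zinc finger transcription factor, and JUN, a subunit of AP-1, were the members called. EGR1 read 6.43, 6.66 and 6.48 against 7.50, 7.42 and 7.14 in MDA-MB-231 and 6.60, 6.74 and 6.87 against 7.26, 6.91 and 7.08 in MDA-MB-468. Its groups were apart in both lines, with a narrow margin in the latter, and it rose by 0.59 ± 0.105 log2 (SE; adjusted p = 0.0247). The other feature named EGR1 differed by 0.20 and was not called. JUN read 8.12, 8.24 and 8.11 against 8.83, 9.05 and 8.91 in MDA-MB-231, and 8.73, 8.60 and 8.92 against 9.38, 9.07 and 8.83 in MDA-MB-468. One treated array of MDA-MB-468 lay within the controls, and the mean rise of JUN was 0.56 ± 0.103 log2 (SE; adjusted p = 0.0272). MAFF (0.41, adjusted p = 0.0604) and IER3 (0.27, adjusted p = 0.0766) did not pass. In SKBR3 the called members EGR1 and JUN differed by 0.31 and 0.19, with groups apart.

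Genes that feed back on MAP kinase signalling, together with the PEA3 class of ETS factors that this pathway drives, were above 0 in 14 of 17 cases, with 10 higher and 0 lower at an unadjusted p under 0.05 and 3 called higher and 0 lower (17.6%). Over all named genes 1.93% were called. The median difference of the MAPK feedback and PEA3 list was 0.27, and 15 of its 17 genes had the same sign in both lines. In SKBR3, with the anti-LINC01269 ASO, the list's median was 0.12. DUSP1, a phosphatase that inactivates MAP kinases, read 7.87, 7.84 and 7.82 on the MDA-MB-231 control arrays and 8.62, 8.97 and 9.39 on the anti-AL078604.2 arrays. In MDA-MB-468 it read 7.11, 7.32 and 7.14 against 8.16, 7.75 and 7.50. The MDA-MB-231 controls agreed closely, and every treated array stood above its controls, by a mean of 0.88 ± 0.143 log2 (SE; 1.85-fold, adjusted p = 0.0196). SPRY4, an inhibitor of receptor tyrosine kinase signalling, rose by 0.54 ± 0.113 (adjusted p = 0.0408), and ERRFI1, which binds and inhibits EGFR, by 0.26 ± 0.0578 (adjusted p = 0.048). Treated and control arrays overlapped for SPRY4 in MDA-MB-468 and for ERRFI1 in MDA-MB-231. In SKBR3 SPRY4 differed by 0.32 with groups apart, while the groups of DUSP1 (0.30) and ERRFI1 (0.12) overlapped there. SPRY2 (0.33, adjusted p = 0.105) did not pass. SPRY3, a Sprouty gene outside the list that was chosen after its values were seen, fell by 0.27 ± 0.0584 (adjusted p = 0.0425), with -0.35 in MDA-MB-231 and -0.20 in MDA-MB-468, so that of 3 tested Sprouty and SPRED genes 1 was called higher and 1 lower. EGF family ligands and receptors had 0 of 7 members called (2 at an unadjusted p under 0.05, both lower) and a median of -0.11.

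MIR21, which gives rise to the abundant oncogenic microRNA miR-21, read 7.12, 7.09 and 6.85 against 7.95, 7.81 and 7.85 in MDA-MB-231 and 7.41, 7.53 and 7.81 against 8.09, 7.76 and 7.96 in MDA-MB-468. The groups were apart in MDA-MB-231 and overlapped in MDA-MB-468. The mean rise was 0.60 ± 0.106 log2 (SE; adjusted p = 0.0234). The array was hybridised with RNA labelled by a whole-transcript kit, and what share of this signal came from the primary transcript or the hairpin was not analysed here. It was the 1 gene called of 10 tested in the list of microRNA genes and hosts. Its mature product, from the RefSeq record on GRCh38.p14 (chr17:59841273-59841294, plus strand), is printed with the seed, bases 2 to 8, in capitals.
hsa-miR-21-5p: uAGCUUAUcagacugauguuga

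Interferon-stimulated genes were above 0 in 16 of 19 cases, beside 5862 of all 10948 named genes, and 15 had the same sign in both lines. Of the 19, 3 were called higher and 0 lower (15.8%), beside 1.93% called of all named genes. Their median difference in the mean of both lines was 0.13. The list's median was 0.21 in MDA-MB-231 and 0.05 in MDA-MB-468. IFIT3, an antiviral effector of the tetratricopeptide class, read 6.67, 6.77 and 6.61 against 7.01, 7.31 and 7.73 in MDA-MB-231, and 6.02, 6.19 and 6.47 against 6.90, 6.65 and 6.72 in MDA-MB-468. It rose by 0.60 ± 0.112 log2 (SE; adjusted p = 0.0288) with both lines' groups apart. IFIT2, of the same family, rose by 0.72 ± 0.15 (adjusted p = 0.0409), with 0.94 in MDA-MB-231 and 0.49 in MDA-MB-468. HERC5, the ligase that attaches the ubiquitin-like protein ISG15, rose by 0.58 ± 0.121 (adjusted p = 0.0407), and its lowest treated array overlapped the controls in MDA-MB-231. DDX60 (0.32, adjusted p = 0.101) did not pass.

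Of 14 tested nucleic acid sensing genes 13 lay above 0 in the mean of both lines, and 9 had the same sign in both. CGAS, the sensor of cytosolic DNA, was the 1 called (0.51 ± 0.115 log2, SE, adjusted p = 0.0494). Treated and control arrays of CGAS overlapped in MDA-MB-231. The adaptor gene TICAM1 (0.31, adjusted p = 0.0922) and the double-stranded RNA sensor gene IFIH1 (0.22, adjusted p = 0.168) did not pass. RNase H and other proteins of antisense activity had 0 of 10 members called (4 at an unadjusted p under 0.05) and a median of 0.06. NF-kB inflammatory genes had 9 of 10 members above 0 in the mean of both lines, but 5 of the 10 had the same sign in both. Their median was 0.26 with 0 called (3 at an unadjusted p under 0.05, all higher). This list's median was 0.38 in MDA-MB-231 and 0.09 in MDA-MB-468. Of markers of other cell types, 0 of 5 tested leukocyte genes and 0 of 3 tested fibroblast and endothelial genes were called, and 1 and 0 had an unadjusted p under 0.05. Among them CD68, which epithelial lines also express in lysosomes, was highest (0.42, adjusted p = 0.0753). The 7 leukocyte features averaged 5.81 to 6.01 log2 on the MDA-MB-231 control arrays and 5.94 to 6.10 on the anti-AL078604.2 arrays, and 5.57 to 5.65 against 5.59 to 5.86 in MDA-MB-468, and their part in the response was not tested.

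The promoters of 5 of these called higher genes are printed as examples, and each holds a match to a motif that was searched for. Other called higher genes with a match are not printed, and whether the motifs act in any of these genes was not tested. Each is the stretch of 250 bases before the RefSeq start on GRCh38.p14, 5′ to 3′ along the gene, in lower case with the motif matches of either strand in capitals. EGR1 (chr5:138465229-138465478, plus strand) holds the serum response element core known as the CArG box, and DUSP1 (chr5:172771196-172771445, minus strand) the cyclic AMP response element TGACGTCA. TFPI2 (chr7:93890754-93891003, minus strand) holds the AP-1 site TGANTCA. IFIT3 (chr10:89327747-89327996, plus strand) and HERC5 (chr4:88456869-88457118, plus strand) hold the interferon-stimulated response element, searched as GAAA, any 2 bases and GAAA, on the strand opposite to the print. In HERC5, 2 of its 3 matches overlap each other.
EGR1: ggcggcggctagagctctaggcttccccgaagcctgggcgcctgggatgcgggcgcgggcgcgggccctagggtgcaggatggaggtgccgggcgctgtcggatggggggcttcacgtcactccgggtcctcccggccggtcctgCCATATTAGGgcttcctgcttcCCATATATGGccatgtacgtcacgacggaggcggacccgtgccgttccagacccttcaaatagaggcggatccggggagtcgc
DUSP1: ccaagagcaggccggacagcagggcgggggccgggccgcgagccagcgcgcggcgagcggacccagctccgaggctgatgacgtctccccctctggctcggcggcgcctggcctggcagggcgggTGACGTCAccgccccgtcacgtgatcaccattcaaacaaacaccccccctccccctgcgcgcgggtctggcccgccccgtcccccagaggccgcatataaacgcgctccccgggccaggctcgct
TFPI2: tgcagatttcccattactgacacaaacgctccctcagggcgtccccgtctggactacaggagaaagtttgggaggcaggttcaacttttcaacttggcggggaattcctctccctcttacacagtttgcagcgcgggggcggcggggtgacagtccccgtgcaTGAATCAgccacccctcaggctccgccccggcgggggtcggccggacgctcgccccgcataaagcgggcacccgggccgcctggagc
IFIT3: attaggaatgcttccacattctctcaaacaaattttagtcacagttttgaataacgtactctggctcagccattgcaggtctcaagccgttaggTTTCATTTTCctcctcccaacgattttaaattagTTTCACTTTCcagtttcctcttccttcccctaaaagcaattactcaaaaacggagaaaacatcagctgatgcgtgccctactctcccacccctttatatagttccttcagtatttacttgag
HERC5: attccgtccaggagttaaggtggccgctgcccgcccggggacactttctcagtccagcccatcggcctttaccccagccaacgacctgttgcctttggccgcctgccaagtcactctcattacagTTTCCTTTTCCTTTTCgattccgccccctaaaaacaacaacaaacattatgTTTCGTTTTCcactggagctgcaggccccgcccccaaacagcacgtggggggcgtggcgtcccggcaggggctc

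The same motifs were counted in the promoter windows of 300 bases (250 before and 50 after the start) of all genes in the RefSeq table, which holds 35116 windows, 92 of them of called higher genes and 184 of called lower genes. In all, 180 of the 215 called named genes matched a promoter entry. The interferon-stimulated response element was found in 3.57% of all windows, 5.43% of those of called higher and 4.35% of those of called lower genes. The AP-1 site was found in 7.71%, 7.61% and 5.98%, and the cyclic AMP response element in 1.85%, 2.17% and 3.80%. For the CArG box the shares were 1.29%, 3.26% and 0.543%, where the called higher windows with a match belong to EGR1 and RND3. These are counts of letters and do not show binding.

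Inhibitors of TGF-beta signalling were among the called rises. SMAD6, an inhibitory SMAD, read 7.00, 6.92 and 7.15 against 7.45, 7.52 and 7.45 in MDA-MB-231 and 6.84, 6.90 and 6.87 against 7.30, 7.14 and 7.13 in MDA-MB-468. It rose by 0.38 ± 0.0585 log2 (SE; adjusted p = 0.0175), a small change with closely agreeing arrays. TGIF1, a homeobox corepressor of SMAD2 and SMAD3, rose by 0.27 ± 0.0593 (adjusted p = 0.0437). Of 10 tested targets and inhibitors of this pathway, 8 lay above 0. In this list 2 were called higher and 0 lower (20%), beside 1.93% called of all named genes. The list's median was 0.08, and SKIL (0.12, adjusted p = 0.389) did not pass. The autophagosome gene MAP1LC3B rose by 0.40 ± 0.0909 (adjusted p = 0.0474), as 1 of 17 lysosome and autophagy genes. The desmosome gene PKP2 rose by 0.33 ± 0.0699 (adjusted p = 0.0425), as 1 of 19 epithelial adhesion genes, whose median was -0.01. Treated and control arrays of PKP2 overlapped in MDA-MB-231.

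The falls were led by genes of diverse function. WDR7, a WD repeat protein linked to the vacuolar proton pump, fell most among named genes (-1.07 ± 0.182 log2, SE; adjusted p = 0.0218). IPO9, an importin that carries histones and other cargo into the nucleus, read 10.78, 10.79 and 10.84 on the MDA-MB-231 control arrays and 10.35, 9.52 and 9.22 on the anti-AL078604.2 arrays. In MDA-MB-468 it read 10.45, 10.48 and 10.46 against 9.22, 9.41 and 9.95. The controls lay within a narrow band in both lines, and the treated arrays lay below it by unequal amounts. The mean difference was -1.02 ± 0.16 log2 (SE; adjusted p = 0.0175). Of 22 tested nuclear import and export receptors, IPO9 was the 1 called, and the list's median was -0.01.

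Other falls among the 15 largest with groups apart in both lines were those of ZKSCAN1 (-1.02 ± 0.178 log2, SE; adjusted p = 0.0232), a zinc finger protein, and MIX23 (-1.01 ± 0.204; adjusted p = 0.0375), a protein of the mitochondrial intermembrane space. LCOR, a corepressor of nuclear receptors, differed by -0.81 ± 0.168 (adjusted p = 0.0407), and MAP7, which binds microtubules, by -0.73 ± 0.161 (adjusted p = 0.045). Membrane traffic was represented by RGP1 (-0.74 ± 0.168; adjusted p = 0.0494), a subunit of the exchange factor for RAB6, and VPS8 (-0.73 ± 0.144; adjusted p = 0.0359), a subunit of the endosomal tether CORVET. The ubiquitin-conjugating enzyme gene UBE2E2 differed by -0.70 ± 0.136 (adjusted p = 0.0346).

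WDR4 and ELP4 both serve tRNA modification. WDR4 is the partner of the tRNA guanosine methyltransferase METTL1, and ELP4 is a subunit of Elongator. WDR4 read 7.44, 7.42 and 7.46 against 7.03, 6.42 and 6.07 in MDA-MB-231, and 7.25, 7.29 and 7.23 against 6.28, 6.29 and 6.79 in MDA-MB-468. Its treated arrays spread widely below tight controls, and it fell by 0.87 ± 0.136 log2 (SE; adjusted p = 0.0175). ELP4 differed by -0.85 ± 0.167 (adjusted p = 0.0346). Of 20 tested tRNA modification enzymes 2 were called lower and 0 higher, beside 131 lower and 80 higher of all 10948 named genes. In this list 12 lay above 0 and the median was 0.03. QTRT1 (0.22, adjusted p = 0.0786) and TRMT6 (0.20, adjusted p = 0.092) had values above 0 that did not pass.

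HTRA1, a secreted serine protease that cleaves matrix proteins, read 7.29, 7.34 and 7.31 against 6.89, 6.42 and 6.09 in MDA-MB-231, and 6.85, 6.94 and 6.80 against 6.29, 6.17 and 6.34 in MDA-MB-468. Its groups were apart in both lines, and the mean difference was -0.72 ± 0.109 log2 (SE; adjusted p = 0.0174). PARD3B, a relative of the cell polarity protein PAR3, read 7.19, 7.32 and 7.12 against 6.64, 6.04 and 5.85, and 7.08, 7.11 and 7.08 against 5.98, 6.11 and 6.75 in the same order. It fell by 0.92 ± 0.142 log2 (SE; adjusted p = 0.0175). MTOR, the kinase at the centre of nutrient signalling, read 9.10, 9.16 and 9.20 against 8.96, 8.36 and 8.06 in MDA-MB-231 and 9.15, 9.15 and 9.13 against 8.19, 8.40 and 8.71 in MDA-MB-468. The mean difference of MTOR was -0.70 ± 0.123 log2 (SE; adjusted p = 0.0234), with -0.70 in MDA-MB-231 and -0.71 in MDA-MB-468. In each of these genes replicate 1 of MDA-MB-231 and replicate 3 of MDA-MB-468 lay nearest to the controls.

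WSB2 and RNF115, from the list of ubiquitin ligase adaptors, fell by less than the genes above and with smaller errors. WSB2, a substrate adaptor with a SOCS box, read 11.19, 11.14 and 11.13 against 10.95, 10.79 and 10.73 in MDA-MB-231 and 10.78, 10.79 and 10.74 against 10.41, 10.46 and 10.48 in MDA-MB-468. The fall was near-equal in both lines, with a mean difference of -0.32 ± 0.0396 log2 (SE; adjusted p = 0.0131). RNF115, a RING-type ligase, read 10.17, 10.12 and 10.10 against 9.85, 9.59 and 9.49, and 10.03, 10.03 and 10.02 against 9.42, 9.62 and 9.70 in the same order. It fell by 0.47 ± 0.0628 log2 (SE; adjusted p = 0.0174). WSB2 was called in 11 of the 12 fits that left out an array, and RNF115 in 10, as were TFPI2, ANXA1 and IPO9. Fewer of these fits called EGR1, MIR21, IFIT3 and TIMP3 (4 each) or MTOR, JUN, ZKSCAN1, GDA and FOXD2-AS1 (3 each). OLR1, TSPAN2, THBS1, DKK1, IFIT2, HERC5, CGAS, SPRY4, ERRFI1, TGIF1, WDR7, ACACA, TKT and XBP1 were called in 2 each. The same held for MIX23, LCOR, ELP4, MAP7, RGP1, VPS8, UBE2E2, THRSP, ANXA8, MAP1LC3B and PKP2 (2 each). Of 14 tested ubiquitin ligase adaptors, WSB2 and RNF115 were called lower and 0 higher, beside 131 lower and 80 higher of all 10948 named genes. Of the 14, 11 lay above 0, and the median was 0.05. WSB1, the paralogue of WSB2, differed by 0.18 (adjusted p = 0.139).

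MAML3, a coactivator of Notch, read 6.77, 6.79 and 6.72 against 6.44, 6.17 and 6.17 in MDA-MB-231 and 6.80, 6.62 and 6.72 against 6.39, 6.32 and 6.29 in MDA-MB-468, and fell by 0.44 ± 0.0647 log2 (SE; adjusted p = 0.0174). It was the 1 gene called of 17 tested in the Notch pathway. The endocytic adaptor gene EPS15L1 fell by 0.56 ± 0.0929 (adjusted p = 0.021), as the 1 called of 14 endocytosis adaptors. CD44, the hyaluronan receptor, fell by 0.32 ± 0.0532 (adjusted p = 0.0204), with a like size in both lines (-0.32 in MDA-MB-231 and -0.33 in MDA-MB-468). Of 8 tested stem cell and ALDH genes it was the 1 called, and ALDH2 (-0.36, adjusted p = 0.0924) did not pass. The metalloproteinase inhibitor gene TIMP3 fell by 0.34 ± 0.0574 (adjusted p = 0.0218) on 1 of its 2 features, and the other feature differed by -0.15 and was not called.

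Metabolic genes gave single calls. ACACA, the acetyl-CoA carboxylase that commits carbon to fatty acid synthesis, fell by 0.27 ± 0.0593 log2 (SE; adjusted p = 0.045). It was the 1 called of 22 cholesterol and fatty acid synthesis genes, 16 of which lay below 0, with a median of -0.09. MVD (-0.49, adjusted p = 0.064) and SREBF1 (-0.25, adjusted p = 0.122) did not pass, nor did FADS1, whose value was above 0 (0.22, adjusted p = 0.105). TKT, the transketolase of the pentose phosphate pathway, fell by 0.33 ± 0.0736 (adjusted p = 0.0468), as the 1 called of 10 NRF2 targets. Treated and control arrays of TKT overlapped in MDA-MB-231. XBP1, a transcription factor of the unfolded protein response that is also a luminal marker, fell by 0.32 ± 0.0675 (adjusted p = 0.043). It was the 1 called of 12 unfolded protein response genes and of 16 luminal genes. THRSP, a regulator of lipogenesis, fell by 0.74 ± 0.154 (adjusted p = 0.0407).

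Proliferation and damage lists held no calls. Of 23 tested DNA replication genes and 23 tested mitosis genes 0 were called, with medians of 0.03 and 0.02, and 4 and 2 had an unadjusted p under 0.05. Among 9 p53 targets, 13 apoptosis regulators, 8 heat shock genes, 15 glycolysis and hypoxia genes, 10 mesenchymal genes and 27 ribosomal protein genes, 0 were called as well, and in the same order 1, 4, 1, 3, 0 and 0 had an unadjusted p under 0.05. The median of the DNA replication list was 0.11 in MDA-MB-231 and -0.08 in MDA-MB-468, so the sign differed between the lines. These counts come from limma's test at the threshold above, and do not show that the lists stayed level.

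**Figure D3:**
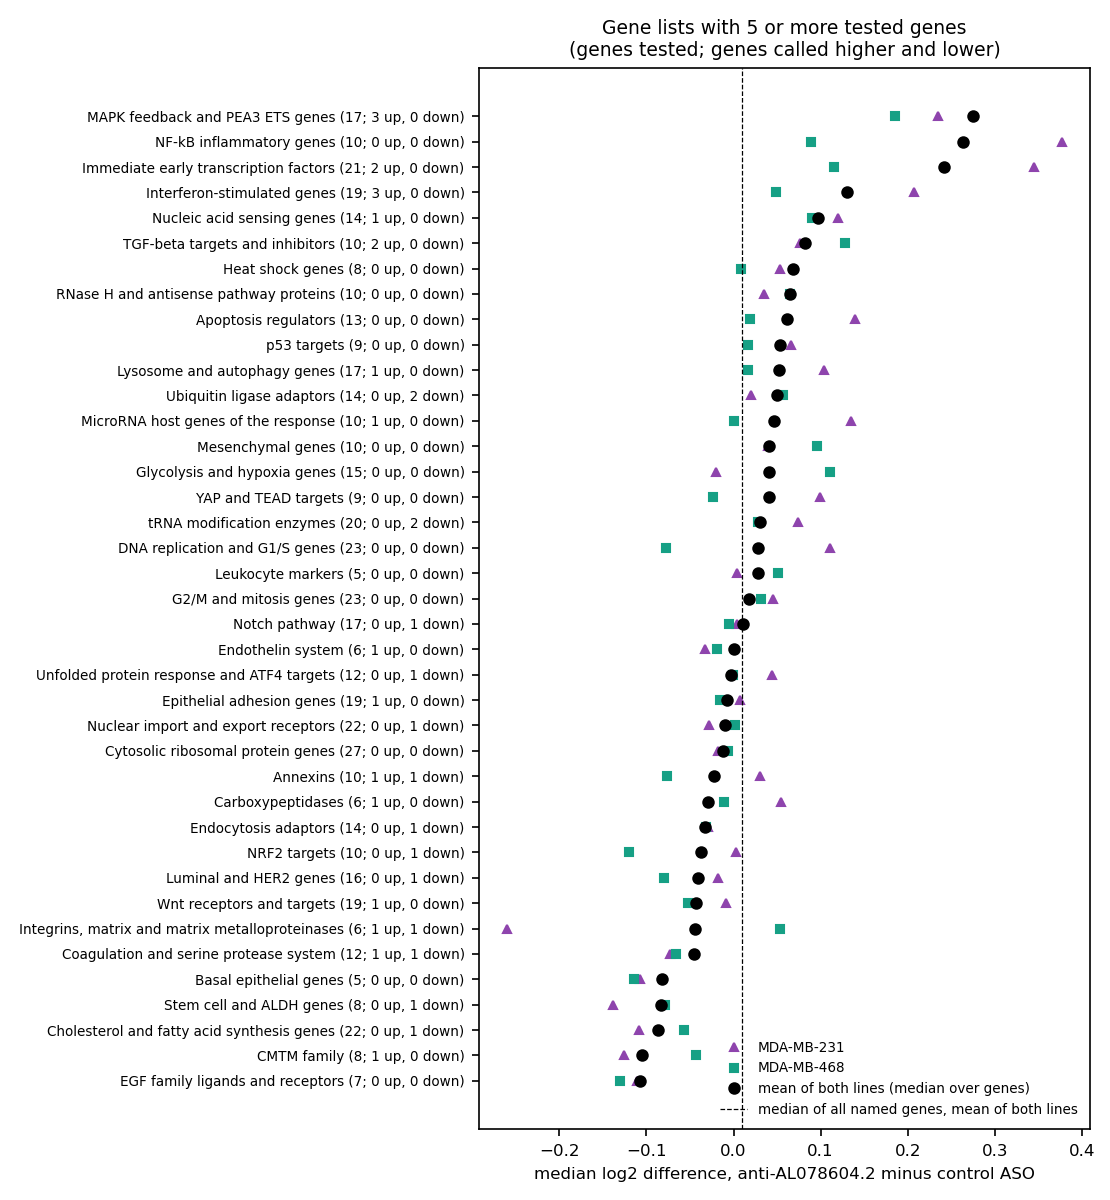
The x axis gives the median log2 difference (anti-AL078604.2 minus control ASO) over the tested genes of each list, with black circles for the mean of both lines, purple triangles for MDA-MB-231 and green squares for MDA-MB-468. Numbers beside each list are the genes tested and those called higher (up) and lower (down). The MAPK feedback (0.27), NF-kB (0.26) and immediate early (0.24) lists lie farthest right of the dashed median of all named genes (0.01).

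Called lower genes had a longer median span than all genes tested. Gene span, the distance from first to last base of a gene in RefSeq's GRCh38.p14 annotation, had a median of 83.0 kb among 131 called lower genes, 27.5 kb among 80 called higher genes and 23.2 kb among all 10948 named genes tested. A span of at least 100 kb was found for 42.0%, 13.8% and 14.8% of these sets. Of the 302 tested genes over 300 kb, 24 were called lower (7.95%) and 0 higher, and 75.2% had a difference below 0. Their median difference was -0.11, with -0.17 in MDA-MB-231 and -0.08 in MDA-MB-468. Leaving out each array in turn gave medians between -0.17 and -0.10. The 3220 genes under 10 kb had a median of 0.01, with 11 called lower (0.342%) and 18 higher (0.559%).

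The called lower genes over 300 kb included FHIT (-0.42; 1504 kb), GPC6 (-0.58; 1191 kb), WWOX (-0.35; 1113 kb) and PARD3B (-0.92; 1075 kb). FHIT and WWOX lie at common fragile sites, and GPC6 encodes a cell surface proteoglycan. The median log2 level differed too, at 8.26 for called lower genes against 7.19 for all named genes, while genes over 300 kb had a median level of 6.87. On the SKBR3 arrays, which share no array with the other lines and received the anti-LINC01269 ASO, the genes over 300 kb had a median difference of -0.10. The relation to gene span was looked for after these data were known, and no test was made of it.

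**Figure D4:**
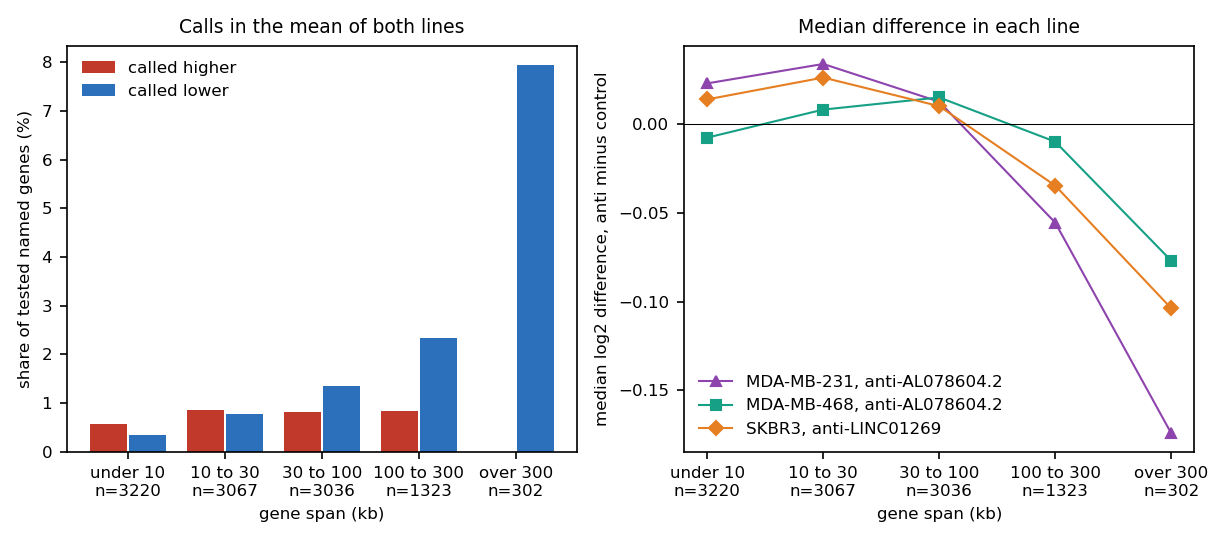
Left, the share of tested named genes called higher (red) or lower (blue) in the mean of both lines, by gene span in kb, with the number of genes tested under each bin. Right, the median log2 difference in each bin for MDA-MB-231, MDA-MB-468 and, with the anti-LINC01269 ASO, SKBR3; lines join bins for the eye. The share called lower reaches 7.95% over 300 kb, where each line's median lies below 0.

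Whether the response differed between the lines was tested on the same 28857 features. At an adjusted p under 0.05, limma called 0 features (0%), with a smallest adjusted p of 0.943, and 1433 (4.97%) had an unadjusted p under 0.05. Among the 387 called features this was so for 13 (3.36%), 11 of them larger in MDA-MB-231. The fit that called the 387 counts a difference between the lines as spread, and so favours features on which they agree. The share of 3.36% is thus a description only. The named genes with the smallest p were PTGES (0.68 ± 0.144 log2, MDA-MB-231 minus MDA-MB-468, SE), HMGN2 (0.53 ± 0.111) and TEX9 (-0.49 ± 0.1), each with adjusted p = 0.943. TFPI2 differed by 1.35 ± 0.543 (adjusted p = 0.943) and ANXA1 by -0.09 ± 0.242 (adjusted p = 0.975). A p that misses the threshold does not show that the lines responded alike.

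The response was also set against that of SKBR3 to the anti-LINC01269 ASO, where target and line differ together and cannot be told apart. Of 29855 features, 0 (0%) were called by limma's test of the difference, with a smallest adjusted p of 0.117, and 2728 (9.14%) had an unadjusted p under 0.05. Among the 387 called features 222 (57.4%) had one, a description only, since the arrays that chose these features are part of that test. Of the 168 called higher features, 110 (65.5%) were above 0 in SKBR3, as were 54.1% of all features tested. Of the 219 called lower features, 149 (68.0%) were below 0 in SKBR3, as were 45.9% of all. The median SKBR3 difference was 0.08 over the called higher and -0.10 over the called lower features, against 0.01 over all.

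CMTM3 had the smallest p of this comparison. Its SKBR3 values were 5.43, 5.67 and 5.35 with the control ASO and 5.53, 5.40 and 5.34 with the anti-LINC01269 ASO, so the groups overlapped. The difference between the responses was 0.77 ± 0.127 log2 (SE; adjusted p = 0.117). IPO9 read 9.53, 9.60 and 9.57 and 9.70, 9.60 and 9.62 in SKBR3, with a difference between responses of -1.09 ± 0.25 (adjusted p = 0.266). For ANXA1 the SKBR3 values were 8.49, 8.44 and 8.48 and 9.59, 8.63 and 8.92, and every anti-LINC01269 array was above the controls there too. Its responses differed by 0.20 ± 0.253 (adjusted p = 0.849). TFPI2 differed by 0.30 in SKBR3, and its responses by 1.81 ± 0.443 (adjusted p = 0.317). WDR4 differed by 0.11 in SKBR3 (-0.97 ± 0.213, adjusted p = 0.266) and PARD3B by -0.40 (-0.52 ± 0.248, adjusted p = 0.556).

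**Figure D5:**
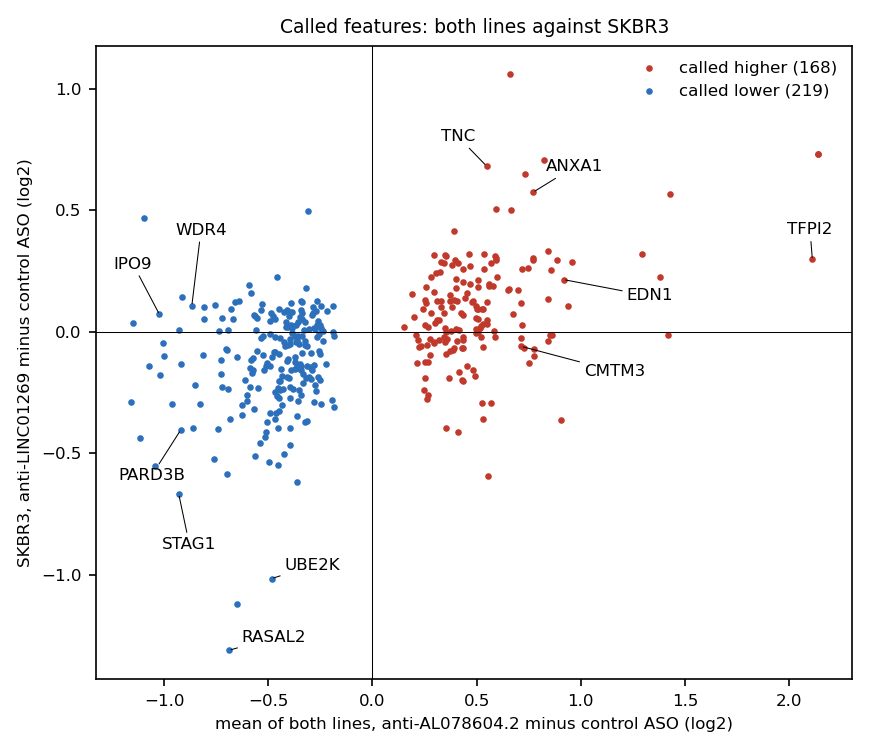
Each point is 1 of the 387 called features, with the mean difference of both lines (anti-AL078604.2 minus control ASO, log2) on the x axis and the SKBR3 difference (anti-LINC01269 minus control ASO, log2) on the y axis. Of the called higher features 110 of 168 lie above 0 on the y axis, and of the called lower features 149 of 219 lie below it. RASAL2 and UBE2K, labelled after their values were seen, lie lowest among the named genes, and CMTM3 and IPO9 lie near 0 on the y axis.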

How the data were processed

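RNA of 12 arrays was analysed, 3 per line and treatment, and the 6 SKBR3 arrays served for comparison. The scans were processed by the authors; the submitters' processing notes name Transcriptome Analysis Console, while its version, its method and the build are not given in the sources used here. Deposited values were read as log2 expression per feature (a transcript cluster) from their range, since no label names the scale. No depth exists for arrays, so their number limits the precision.

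Of 53617 features, 16098 had 1 gene symbol (14884 distinct), 0 had several and 37519 had none in GEO's platform annotation. All 16098 symbols matched RefSeq's GRCh38.p14 table. Features entered the test if, in 1 or more of the 4 groups, their mean lay above the median over all features. In R 4.3.3 with limma 3.58.1, a model of line plus treatment was fitted to the 12 arrays (9 residual and 4.53 prior degrees of freedom) with an intensity trend, and two-sided p-values were adjusted by Benjamini-Hochberg over all tested features at a threshold of 0.05. The line difference used 4 group means (8 residual degrees of freedom) and the difference from SKBR3 6 group means of 18 arrays (12).

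The tests were tested on simulated data with known differences before use. The simulated noise was independent between features and arrays, with equal spread in treated and control arrays. It thus does not show how the tests behave where arrays respond to unequal extents.

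Named genes were, first, the 15 largest rises and 15 largest falls among called features with a symbol and with groups apart in both lines, a gene with several features being given by its smallest p. Members named with values from 40 gene lists are among the 4 of their list with the smallest p, not all of which are printed, and the 3 smallest p of the line difference and up to 5 of the first genes per direction against SKBR3 followed. SPRY3, ANXA8L1, FHIT, GPC6, WWOX, RND3, RASAL2 and UBE2K, outside this rule, were chosen after their values were seen. List medians, signs and calls use each gene's feature of highest mean. List counts at an unadjusted p under 0.05 use each gene's feature of smallest p. The members, lists and rules were chosen with earlier results of these data known. Alternatives covered normalization, the filter, the model, the empirical Bayes step, array weights, a replicate block, each line alone and each array left out.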

Additional observations from a re-analysis of the deposited data

How the results depend on the processing

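The direction of each of the 387 called features that was tested stayed in every alternative, while the number of calls moved. It was 383 with quantile normalization, 372 with array medians subtracted, 419 with a stricter filter, 287 with group means of 12 arrays, 496 with group means of 18 arrays and 372 with robust hyperparameters. It was 124 without a filter (56 higher, 68 lower), 127 without the intensity trend (61 higher, 66 lower) and 1560 with array weights (634 higher, 926 lower), whose estimation stopped before convergence. MDA-MB-231 alone gave 3 calls (0 higher, 3 lower) and MDA-MB-468 alone 0 (0 higher, 0 lower), on 6 arrays each. Leaving out each array in turn gave 1 to 1488 calls (1 to 687 higher, 0 to 801 lower). The cause of these moves was not tested. The replicate block gave 52 calls (27 higher, 25 lower). The deviations of same-numbered arrays correlated weakly (r from -0.13 to 0.05, with 1 of 6 correlating best with its own number). With 3 arrays per group this cannot decide whether the numbers pair samples, and the labels do not say so. The difference between lines had 0 calls in all alternatives but array weights (20). The difference from SKBR3 had 37 calls with array weights and 0 to 82 with 1 array left out, 82 without replicate 2 of the SKBR3 anti-LINC01269 arrays, 41 without replicate 1 of the MDA-MB-231 anti-AL078604.2 arrays, and 0 in the remaining settings but 1 call without MDA-MB-231 control replicate 1 or MDA-MB-468 anti-AL078604.2 replicate 3. CDC45, not called, turned sign in MDA-MB-231 alone (0.00059).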

Other observations

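The families of these paragraphs, and their genes other than MTOR, VPS8 and UBE2E2, were chosen after their values had been seen and are given as values, beside 80 genes called higher and 131 called lower of all 10948 named genes tested (1.93%). Beside MTOR, 2 of its upstream regulators were called lower, namely TSC2 (-0.39 log2, adjusted p = 0.0272 by limma), a subunit of the complex that restrains it, and SESN3 (-0.49), a sestrin. With 3 of 16 tested genes of the mTOR pathway called lower and 0 higher, the median of the family was 0.00. Membrane traffic gave VPS8 (-0.73) and VPS53 (-0.49) of 36 tested VPS genes, and TRAPPC3 (-0.53) and TRAPPC9 (-0.43) of 14 tested TRAPPC genes, with 0 called higher in either family and medians of -0.02 and 0.01. Among 23 ubiquitin-conjugating enzyme genes, UBE2E2 (-0.70) and UBE2K (-0.48) were called lower and 0 higher, with a median of 0.01.

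Genes named ZNF, the zinc finger family, lay above 0 in 295 of 396 tested cases, beside 5862 of all 10948 named genes. The median of the ZNF genes was 0.06 (0.06 in MDA-MB-231, 0.05 in MDA-MB-468 and 0.02 in SKBR3). Of these genes 3 were called higher and 1 lower. ZNF217 (0.22), ZNF490 (0.29) and ZNF850 (0.35) were higher and ZNF609 (-0.34) was lower. The matrix glycoprotein gene TNC rose in the mean of both lines (0.55 log2), and its SKBR3 difference was 0.68. The Hippo pathway gene NF2 (-0.59), the cohesin gene STAG1 (-0.93) and the focal adhesion kinase gene PTK2 (-0.45) were called lower. ODC1, which makes the first polyamine, was called higher (0.47), as was the long non-coding RNA gene UCA1 (0.43).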
